A study of Mus musculus with 18 samples.

Results

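Neurog1, Neurog2, Neurog3, Atoh7, Neurod2, Neurod6, Olig2 and Ptf1a were taken by symbol, 8 genes of 49943 RefSeq genes on the mouse chromosomes. They were followed in the authors' deposited comparison of fibroblast RNA-seq and in gene windows (gene body with 2 kb on both sides, mm10) of both multiome ATAC libraries, where fragments mark open chromatin of single nuclei. The fibroblasts were mouse embryonic fibroblasts (MEFs) of the R26-M2rtTA line on C57BL/6. All of them carried lentiviral Brn2 and Myt1l under doxycycline control and were read after 48 h of doxycycline, either so or with lentiviral Ikzf1 and Ikzf4 added, in 3 RNA-seq libraries per group. The control multiome library came from retina labelled as Muller glia, of the GLAST-CRE ERT2 ; RosaYFP line on C57BL/6, with mCherry. No tissue, line or strain can be read from the labels of the Ikzf1/4 multiome library, whose fields hold only its title. Both descriptions name tamoxifen at 14 days, while the run names in the file headers carry 48 h, so the time is uncertain. Fibroblast ATAC peaks at the member loci and fibroblast values per library were not analysed here.

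The members are basic helix-loop-helix (bHLH) transcription factors. Proneural bHLH factors bind a short DNA word, the E-box, as partners of the widely expressed E proteins, and start or carry forward the making of neurons. Id proteins take E proteins away from them, and Hes and Hey proteins repress their genes. In the retina Atoh7 is needed for ganglion cells, Ptf1a for amacrine and horizontal cells, and Neurog2 is expressed in dividing progenitors. Neurog1 is a close relative of Neurog2 that is used in sensory ganglia, and Neurog3 makes endocrine cells of the pancreas. Neurod2 and Neurod6 act later, in neurons that are already differentiating. Olig2 specifies motor neurons and oligodendrocytes.

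Promoters are shown for Neurog1 and Atoh7, whose highest levels were in cone-like cells of the control. Those of Neurod2, whose start was most open in an unnamed cluster, and of Olig2, the member with a difference between the libraries, follow. The sequences are the 250 bases before the gene start from RefSeq (GRCm38.p6), 5′ to 3′ on the gene's strand, with E-boxes (CANNTG, which reads the same on both strands) in capitals. They lie at chr13:56252181-56252430 (minus strand), chr10:63099535-63099784 (plus strand), chr11:98329646-98329895 (minus strand) and chr16:91225300-91225549 (plus strand).
Neurog1: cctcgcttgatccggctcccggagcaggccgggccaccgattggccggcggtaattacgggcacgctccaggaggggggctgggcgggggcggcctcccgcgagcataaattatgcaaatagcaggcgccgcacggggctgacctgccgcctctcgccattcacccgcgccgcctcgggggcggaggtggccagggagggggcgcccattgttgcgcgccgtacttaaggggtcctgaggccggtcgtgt
Atoh7: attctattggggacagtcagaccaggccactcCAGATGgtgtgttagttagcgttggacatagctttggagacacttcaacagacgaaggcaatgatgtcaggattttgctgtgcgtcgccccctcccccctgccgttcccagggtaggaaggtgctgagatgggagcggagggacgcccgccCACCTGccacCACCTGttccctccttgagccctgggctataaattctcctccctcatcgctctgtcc
Neurod2: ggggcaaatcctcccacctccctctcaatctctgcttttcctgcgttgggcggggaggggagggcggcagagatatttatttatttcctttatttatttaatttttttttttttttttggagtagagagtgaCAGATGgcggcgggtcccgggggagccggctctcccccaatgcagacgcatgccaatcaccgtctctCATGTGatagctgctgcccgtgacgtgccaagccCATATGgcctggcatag
Olig2: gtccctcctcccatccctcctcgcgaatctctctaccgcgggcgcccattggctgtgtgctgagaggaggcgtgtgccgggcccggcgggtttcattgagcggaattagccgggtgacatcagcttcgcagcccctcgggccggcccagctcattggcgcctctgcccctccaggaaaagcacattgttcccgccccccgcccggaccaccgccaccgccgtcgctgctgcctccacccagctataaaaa
All 8 members had an entry in the promoter table, and the entry of Neurog2 begins inside its gene record, so it is not printed. Atoh7 had 3 E-boxes, whose first bases lay at -218, -67 and -57 from the start, with the letters CAGATG at the first and CACCTG at the other two. Neurod2 also had 3, at -118, -51 and -17. Neurod6 had 2 and Neurog3 had 1, while the windows of Neurog1, Neurog2, Olig2 and Ptf1a held none. Of 32851 promoters of that length, 66.2% held an E-box. The Ikaros core letters GGGAA, searched on both strands, were found in 6 of the 8 members and in 56.2% of all promoters. These matches are letters in a window and not measured binding.

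In fibroblasts Neurog2 was the only member with enough reads for an adjusted p. The authors' deposited table gave it a mean of 14.8 normalised counts over the 6 libraries and a log2 fold change of 0.59 (SE 0.22) with Ikzf1 and Ikzf4 added, a 1.5-fold higher level (DESeq2 adjusted p = 0.0275). The 95% interval from that SE ran from 0.16 to 1.02. Thus 1 of 1 tested member was called, where 30.6% of the 16757 tested genes were called and 15.3% were called higher. Of 962 genes with a similar mean, 10 to 20 normalised counts, 9.88% were called. With a required log2 fold change over 1, which 2.15% of genes met, Neurog2 was not called. Whether the deposited fold changes were shrunken is not stated and was not tested. This bears on the 1.5-fold value, its interval and that cutoff.

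The other 7 members had means under 1 normalised count. In the authors' deposited table their means ran from 0.164 normalised counts for Neurog1 to 0.959 for Neurod2, with Atoh7 at 0.319, Ptf1a at 0.326, Olig2 at 0.490, Neurog3 at 0.599 and Neurod6 at 0.629. Their log2 fold changes lay between -0.01 (Neurog1) and 0.06 (Neurod2), and none had an adjusted p, since the lowest mean with one was 3.61. At this depth no difference was detectable for them. The median SE of genes with a mean under 1 was 0.049 in that table, below the 0.214 at means of 10 to 20, so a small SE there is no sign of precision. In bulk RNA, more cells with a transcript and more transcript per cell cannot be told apart.

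Among 10 other neural bHLH factors, 5 had an adjusted p and 1 was called, where 30.6% of all tested genes were. It was Bhlhe22, a factor of retinal amacrine and bipolar neurons. The authors' deposited table gave Bhlhe22 a mean of 35.7 normalised counts and a log2 fold change of 0.60 (SE 0.22, DESeq2 adjusted p = 0.0287). The median log2 fold change of the 5 genes with an adjusted p was 0.29, beside 0.00 over all genes with one.

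The E proteins had means of 2500 to 5542 normalised counts and the Id genes of 835 to 2177. Of all tested genes 30.6% were called, and the share at such means was not computed. Of the 3 E proteins, Tcf4 was lower by a log2 fold change of -0.31 (SE 0.07, adjusted p = 2.75e-05 from DESeq2 in the authors' deposited table), and Tcf3 and Tcf12 were not called. All 4 Id genes were called. Id4 (0.84, SE 0.11), Id2 (0.64, SE 0.08) and Id1 (0.37, SE 0.11) rose, and Id3 fell (-0.33, SE 0.07), with DESeq2 adjusted p of 0.00333 for Id1 and lower for the others in the authors' deposited table. Of the 9 Hes and Hey genes, 6 had an adjusted p and 1 was called: Hey1, a Notch-induced repressor, rose by 0.80 (SE 0.16, adjusted p = 2.79e-06 from DESeq2 in the authors' deposited table). Hes1, with a mean of 654 normalised counts, had a log2 fold change of -0.20 (SE 0.10), which was not called.

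Of the 20 targets of proneural factors, 18 had an adjusted p, 6 were higher and 2 lower, and the median log2 fold change of those 18 was 0.05. Over all tested genes 30.6% were called, 15.3% higher and 15.4% lower, which also stands beside the mesodermal factors below. Isl1, a homeobox gene of motor and sensory neurons and bipolar cells, rose by 2.21 (SE 0.21) in the authors' deposited table (DESeq2 adjusted p = 6.69e-24). Pou4f1, a sensory and ganglion cell factor, rose by 1.03 (SE 0.20, adjusted p = 4.12e-06 from DESeq2 in the authors' deposited table). Eomes, which follows Neurog2 in cortical progenitors, rose by 0.71 (SE 0.23) and Cbfa2t2, a co-repressor, fell by 0.22 (SE 0.07), with DESeq2 adjusted p of 0.00803 and 0.0109 in the authors' deposited table. Among the targets that did not pass, Dcx had a log2 fold change of -0.01, Elavl3 of -0.06 and Elavl4 of 0.11 in the authors' deposited table. Of the 16 mesodermal bHLH factors, 6 had an adjusted p, with Tcf24 higher (1.03, SE 0.23) and Hand2, a mesenchyme factor, lower (-0.48, SE 0.10), at DESeq2 adjusted p of 4.42e-05 and 1.49e-05 in the authors' deposited table.

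**Figure D1:**
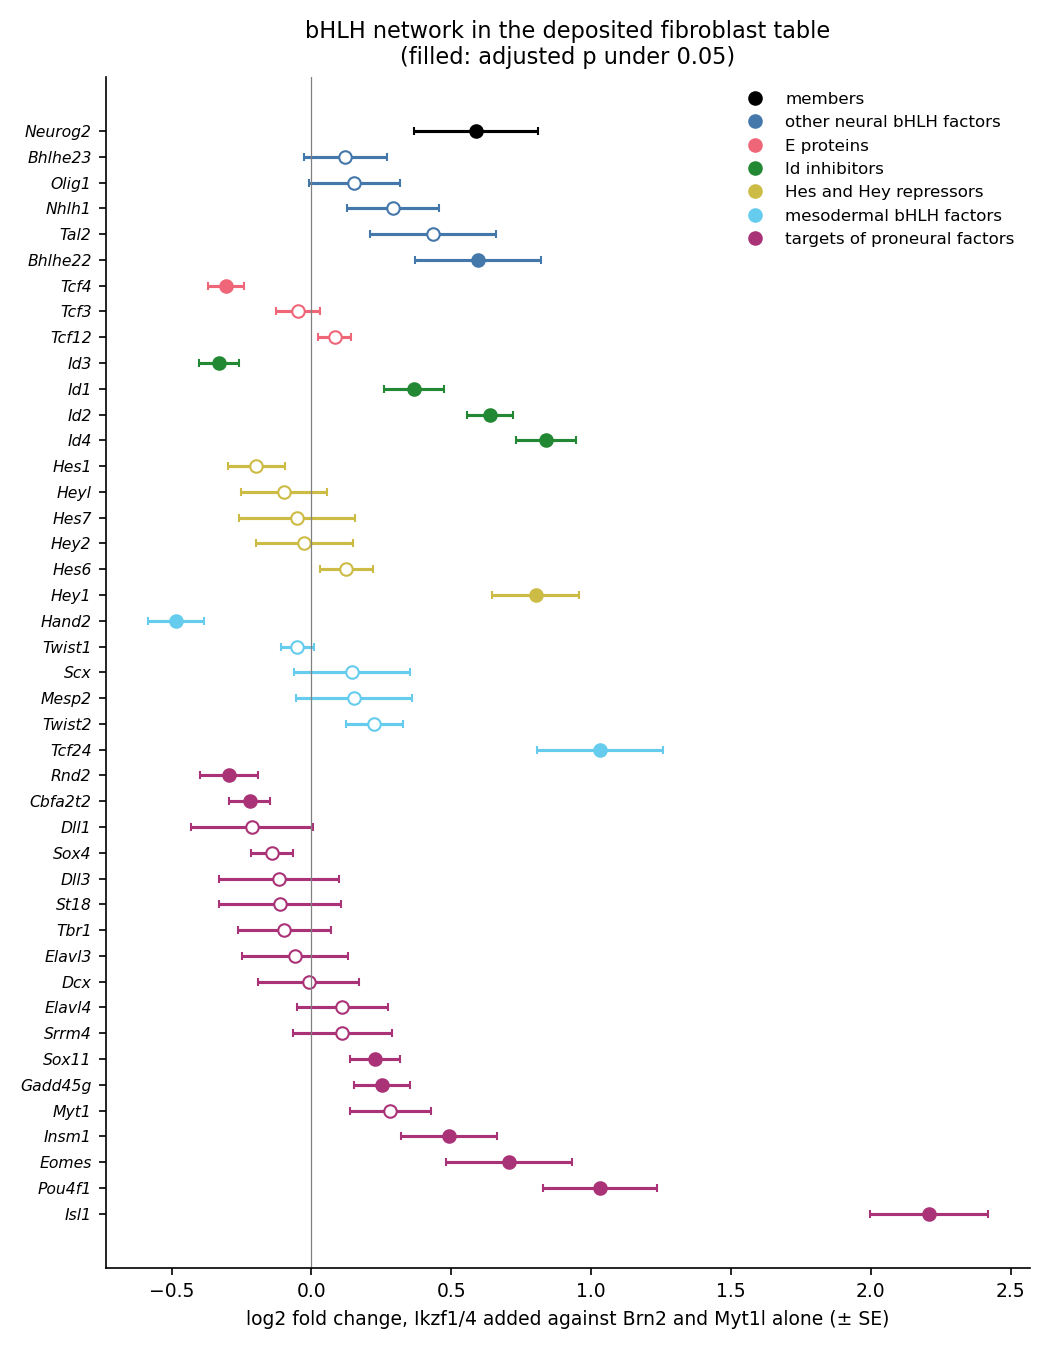
Log2 fold change (x axis, point, with SE as bars) of each gene of the bHLH lists that has an adjusted p in the authors' deposited fibroblast table, 1 gene per line and 1 colour per list; filled points have an adjusted p under 0.05. Neurog2 is the only member shown, at 0.59, and the Id genes split into 3 higher and 1 lower.

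Marker genes of several cell types differed in the same comparison. Of 12 fibroblast markers, 8 were lower and none higher with Ikzf1 and Ikzf4 added in the authors' deposited table, where 15.4% of all tested genes were lower, and 2 of 11 tested neuron markers were lower and none higher. All 4 macrophage markers were present, with means of 1146 to 2580 normalised counts, and 0 of them were called in the authors' deposited DESeq2 table. Of 4 skeletal muscle markers, Myod1 and Myog were at a mean of 0.16, Des (mean 83.5) was not called and Ttn (mean 34.3) was higher by 0.80 (SE 0.22) in the authors' deposited table. Epcam, an epithelial gene and the only one of 3 keratinocyte markers with an adjusted p, was higher by 0.64 (SE 0.22), and 0 of 3 endothelium markers were called in that DESeq2 table. The part of these markers in the value of Neurog2 was not tested.

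For the retinal libraries, 1876 control cells held 13424818 fragments (median 6230 per cell) and 693 cells of the Ikzf1/4 library held 8791841 (median 10962 per cell). Levels are given as fragments per 1000000 fragments in cells (CPM), with exact 95% Poisson intervals that cover counting error only. With 1 library per group there is no test of the condition. A difference is named where a ratio of CPM is past 1.5-fold and its exact 95% interval excludes 1, which describes these libraries. The cells were not all Muller glia by marker genes: 625 control cells (33.3%) and 76 cells of the Ikzf1/4 library (11.0%) fell into Muller glia-like clusters. Of these, cluster 0 had the astrocyte list close behind that of Muller glia (median log2 ratios of 1.18 and 1.38). Neither cluster 0 nor cluster 2, the other Muller glia-like cluster, had a Muller glia marker among its 10 leading genes. Cone-like cells made up 13.9% and 21.1%, bipolar-like cells 19.1% and 22.1%, rod-like cells 5.01% and 19.6%, and microglia-like cells 6.18% and 2.60%. Unnamed clusters held 22.5% and 23.7%. Among them cluster 7 (3.41% and 10.8%) had Muller glia as its highest marker list and fell short of a naming limit that was set after the clusters were seen. The libraries shared 3 cell barcodes. They also differed in fragment length (mean of 125 and 149 bp), in the share of fragments within 1 kb of gene starts (29.1% and 33.0%) and in read pairs per fragment (1.96 and 4.59), and the part of these in the ratios between the libraries was not tested.

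With 2 kb on both sides of the gene, Neurog2 was the most open member window in the control and Neurog3, Olig2 and Neurod6 were the least open. With 10 kb on both sides Neurod2 was the most open, at 1.88 CPM per kb in the control against 1.34 for Neurog2. In the windows with 2 kb, Neurog2 stood at 2.44 CPM per kb, followed by Atoh7 at 1.86, Neurod2 at 1.18, Neurog1 at 1.02, Ptf1a at 0.791, Neurod6 at 0.450, Olig2 at 0.355 and Neurog3 at 0.328. Among 18847 protein-coding windows these levels ranged from the 82.3 percentile for Neurog2 down to the 22.4 percentile for Neurog3. Set against an even spread of fragments over the genome, the Neurog2 window held 6.52 times that level, Atoh7 4.94 times and Neurog3 0.874 times. For Neurog3, Olig2 and Neurod6 in the control, the level of an even spread lay inside the interval.

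**Figure D2:**
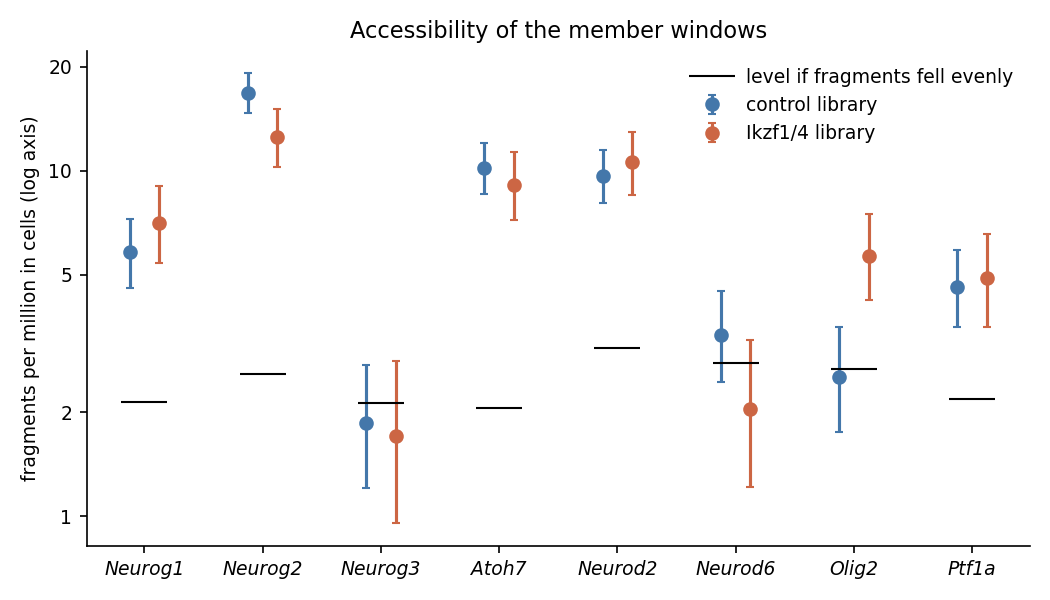
CPM in cells (y axis, log scale) in the window of each member (x axis), with exact 95% Poisson intervals, in the control library and the Ikzf1/4 library; black bars mark the level of an even spread over the genome. The intervals of both libraries overlap for every member except Olig2, which was at 2.53 in the control against 5.69 in the Ikzf1/4 library.

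Between the libraries 1 of 8 members passed 1.5-fold, Olig2, where 7.47% of all windows did (2.31% higher, 5.16% lower). The Olig2 window held 34 fragments in control cells, 2.53 CPM (1.75 to 3.54), and 50 fragments in cells of the Ikzf1/4 library, 5.69 CPM (4.22 to 7.5). The ratio was 2.25 (1.42 to 3.58). Within 1 kb of the start there were 13 and 15 fragments, with a ratio of 1.76 (0.78 to 4.02). Over all barcodes the ratio was 1.46, and in barcodes that were not cells it was 1.33 (1.05 to 1.67). With 10 kb on both sides it was 1.90 (1.44 to 2.51), and with only cells of at least 10000 fragments 3.06 (1.52 to 6.80). At the control's mix of cell classes the Olig2 ratio was 2.51. In the Ikzf1/4 library 1 bipolar-like cell with 42306 fragments held 6 of the 50, and without the cell with most Olig2 fragments in each library the ratio was 2.10 (1.30 to 3.42). The Olig2 window also overlaps the gene model Gm52261. Its part in the value was not tested.

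The other 7 members did not pass. Neurog2 was at 16.8 CPM (226 fragments) in the control against 12.5 CPM (110 fragments) in the Ikzf1/4 library, with a ratio of 0.74 (0.59 to 0.94). At the control's mix of cell classes the Neurog2 ratio was 1.23, on the other side of 1. Within 1 kb of the Neurog2 start the ratio was 0.55 (0.40 to 0.76), which passed 1.5-fold. Atoh7 was at 10.2 and 9.10 CPM, a ratio of 0.89 (0.67 to 1.18), and Neurod2 at 9.68 and 10.6 CPM, a ratio of 1.09 (0.83 to 1.44). Neurog1 was at 5.81 and 7.05 CPM, a ratio of 1.21 (0.86 to 1.72). Ptf1a was at 4.62 and 4.89 CPM, a ratio of 1.06 (0.70 to 1.59), which was 1.89 (0.98 to 3.88) with only cells of at least 10000 fragments and 0.58 (0.22 to 1.37) within 1 kb of the start. Neurog3 was at 1.86 and 1.71 CPM, a ratio of 0.92 (0.45 to 1.81). Neurod6 was at 3.35 and 2.05 CPM, a ratio of 0.61 (0.33 to 1.08), and near its start it had 14 fragments in the control against 2 in the Ikzf1/4 library. The median ratio over the 8 members was 0.99, beside 1.05 over all windows.

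Among the named classes the Neurog2 window was most open in Muller glia-like cells. In the control library the Neurog2 window held 119 fragments in Muller glia-like cells, 30.4 CPM (25.2 to 36.3), against 11.3 CPM in all other cells, a ratio of 2.70 (2.06 to 3.54). In the Ikzf1/4 library the 76 Muller glia-like cells held 24 fragments, 43.8 CPM (28.0 to 65.1), against 10.4 CPM in other cells, a ratio of 4.20 (2.55 to 6.66). The fragments were spread over 102 and 17 cells, with at most 3 in any cell. Neurog2 was the 1 member of 8 past 1.5-fold in Muller glia-like cells of both libraries, where 4.63% of all windows were. The 5 kb bins within 10 kb of each member had been kept out of the clustering, so these values did not shape the classes. With only cells of at least 10000 fragments, clustered anew, the ratios for Neurog2 were 1.80 and 2.04, and within 1 kb of the start they were 3.13 and 6.91.

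Neuronal classes varied in Neurog2. Rod-like cells were at 5.21 CPM in the control against 5.03 CPM in the Ikzf1/4 library, bipolar-like cells at 6.54 and 7.62, and cone-like cells at 7.48 and 11.5. Neurog2 was past 1.5-fold lower in rod-like and in bipolar-like cells of both libraries, where 10.2% and 4.62% of all windows were. It was the 1 member of 8 lower in each. With only cells of at least 10000 fragments these calls were lost: the Neurog2 ratios were 0.63 (0.016 to 3.60) and 0.47 (0.15 to 1.15) in rod-like cells, and 0.84 (0.43 to 1.51) and 0.82 (0.48 to 1.37) in bipolar-like cells. Within 1 kb of the start the call in rod-like cells of the control was lost too (0.46, 0.093 to 1.37). Cone-like cells of the Ikzf1/4 library did not pass 1.5-fold in Neurog2 against other cells (0.90, 0.55 to 1.42). In 7 further contrasts of a class with other cells, 0 of 8 members passed in both libraries, while all windows passed in 8.79% (rod-like, higher), 3.33% (bipolar-like, higher), 9.29% and 7.96% (microglia-like, higher and lower), 6.98% (cone-like, lower), 2.58% (cluster 1, lower) and 11.3% (Muller glia-like, lower). Microglia-like cells were at 14.5 CPM (8.46 to 23.3) in the control, and the unnamed clusters 1, 7 and 10 at 17.5, 11.6 and 25.1. For the Ikzf1/4 library, clusters 1 and 7 were at 11.5 and 15.8 CPM in Neurog2, the last from 25 fragments in 75 cells (10.2 to 23.3), below its 43.8 CPM in Muller glia-like cells. The interval of cluster 10 (14.3 to 40.7, 73 cells) overlapped that of Muller glia-like cells, so their order is not resolved.

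Muller glia-like cells were made of clusters 0 and 2, which differed in Neurog2 in the control. There, cluster 0 (362 cells, 99 of the 119 fragments) was at 37.8 CPM (30.7 to 46.0) and cluster 2 (263 cells) at 15.4 CPM (9.39 to 23.7), a ratio of 2.46 (1.51 to 4.20), a call that 9.85% of all windows gave. The Ikzf1/4 library had 14 cells in cluster 0 and 62 in cluster 2, and its ratio of cluster 0 to cluster 2 was 2.26 (0.84 to 5.59), which includes 1. Its cluster 2 cells were at 35.7 CPM (20.4 to 57.9) from 16 fragments, a ratio to the control of 2.32 (1.12 to 4.71), a call that 6.32% of all windows gave in that cluster. In cluster 0 the ratio to the control was 2.13 (0.89 to 4.35), which did not pass. Over all Muller glia-like cells the ratio of the Ikzf1/4 library to the control was 1.44 (0.89 to 2.25), which did not pass. Its direction was not stable under settings that also changed which cells made up the class. With only cells of at least 10000 fragments Neurog2 in Muller glia-like cells was at 23.7 CPM in the control and 18.4 CPM for the Ikzf1/4 library, and at resolutions 0.4 and 1.2 at 29.6 and 33.9 CPM. At resolution 0.4 the Muller glia-like clusters held 63 and 61 cells of the Ikzf1/4 library. With at least 10000 fragments 63 of its cells were Muller glia-like. The call in cluster 2 was not computed under these settings. At resolution 1.2 a Muller glia-like cluster held 263 control cells and 62 of the Ikzf1/4 library, as cluster 2 did.

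Among the named classes Atoh7 had its highest CPM in cone-like cells and was low in Muller glia-like cells. Cone-like cells held 54 Atoh7 fragments in the control, 23.8 CPM (17.9 to 31.0), against 7.44 CPM in other cells, a ratio of 3.19 (2.22 to 4.55). Those of the Ikzf1/4 library held 37, 17.7 CPM (12.5 to 24.4), against 6.41 CPM, a ratio of 2.77 (1.73 to 4.39). Atoh7 was the 1 member past 1.5-fold in cone-like cells of both libraries, where 4.9% of all windows were. Bipolar-like cells followed at 16.8 and 12.5 CPM, with ratios to other cells of 1.92 (1.30 to 2.79) and 1.53 (0.90 to 2.52). Muller glia-like cells held 7 Atoh7 fragments in the control, 1.79 CPM, against 13.7 CPM in other cells, a ratio of 0.13 (0.051 to 0.28). In the Ikzf1/4 library they held 1 fragment, 1.82 CPM against 9.58 CPM, and the ratio of 0.19 had an interval (0.0048 to 1.09) that included 1. Rod-like cells were at 15.6 and 6.47 CPM, with ratios to other cells of 1.57 (0.70 to 3.07) and 0.67 (0.30 to 1.35). Microglia-like cells held 1 Atoh7 fragment in each library, at 0.854 CPM in the control, where the ratio was 0.077 (0.0019 to 0.44). Cone-like cells of the control were mostly of cluster 3 (250 cells), and those of the Ikzf1/4 library mostly of cluster 9 (103 cells). Of the 37 Atoh7 fragments in the Ikzf1/4 library, 36 came from cluster 9, at 20.1 CPM (14.1 to 27.8), and 1 from the 43 cells of cluster 3, at 3.39 CPM. The control's cluster 3 was at 24.0 CPM. In cluster 3 the Atoh7 ratio of the Ikzf1/4 library to the control was 0.14 (0.0035 to 0.82), which passed 1.5-fold on 1 fragment. In cluster 9 it was 0.96 (0.34 to 3.70), which did not pass. The share over all windows was not computed for these clusters.

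Neurod2 had its highest CPM in cluster 1, an unnamed cluster of 285 control cells and 86 cells of the Ikzf1/4 library. Bipolar was its highest marker list (median log2 ratio of 0.51, under the naming limit), and Neurod4 was among its leading genes. The Neurod2 window there held 44 fragments, 25.7 CPM (18.7 to 34.5), in the control and 18 fragments, 17.2 CPM (10.2 to 27.2), in the Ikzf1/4 library. These intervals overlapped those of microglia-like cells of the control (6.54 to 20.1) and cone-like cells of the Ikzf1/4 library (8.92 to 19.4). The order of these classes is thus not resolved. The ratios of cluster 1 to other cells were 3.5 (2.37 to 5.09) and 1.78 (1.0007 to 3.01), a call in both libraries that 3.17% of all windows gave. Within 1 kb of the Neurod2 start they were 6.84 (4.02 to 11.6) and 2.91 (1.31 to 6.03). The call depended on the clustering: at resolution 0.4 the bipolar-like class held 61 and 32 Neurod2 fragments, with ratios to other cells of 1.96 (1.36 to 2.80) and 1.08 (0.68 to 1.68). Cone-like cells held 14 Neurod2 fragments (6.16 CPM) in the control and 28 (13.4 CPM) for the Ikzf1/4 library, with a ratio of 2.18 (1.11 to 4.48), a call that 3.74% of all windows gave in that class. Those 28 fragments came from 22 cells. Neither cone-like cluster passed alone for Neurod2: the ratio was 1.77 (0.32 to 6.54) in cluster 3 and 1.33 (0.33 to 11.6) in cluster 9. Within 1 kb of the start there were 6 and 9 fragments in these cells.

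Neurog1 was higher in cone-like cells of the control, at 12.8 CPM (8.55 to 18.3) against 4.39 CPM in other cells, a ratio of 2.91 (1.77 to 4.69). In the Ikzf1/4 library the ratio for Neurog1 was 1.03 (0.53 to 1.87), at 7.19 and 7.01 CPM. Whether these ratios differ was not tested. Neurod6 held at most 12.5 CPM (5.41 to 24.7) in any control class, in cluster 10, whose leading genes include Slc32a1 and Tfap2c, genes known from inhibitory retinal neurons. This rests on 8 fragments, 2 of them within 1 kb of the start. Its interval overlapped that of cluster 1 (2.80 to 10.7), so their order is not resolved. Within 1 kb of the start, cluster 1 of the control held 6 Neurod6 fragments, a ratio to other cells of 5.13 (1.47 to 16.8). In the Ikzf1/4 library cluster 1 held 0 there. Neurog3 was at 0 to 3.93 CPM in every named class of both libraries, with at most 7 fragments in a class.

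Within classes, 5 of 64 comparisons of a member between the libraries passed 1.5-fold, 3 higher and 2 lower. Besides Neurod2 in cone-like cells, Olig2 was higher in bipolar-like cells, with 6 and 17 fragments and a ratio of 3.77 (1.42 to 11.7), a call that 5.11% of all windows gave there. The cell with 42306 fragments holds 6 of those 17. Bipolar-like cells were mostly of cluster 4 in the control (198 of 358) and of cluster 6 in the Ikzf1/4 library (114 of 153). Neither cluster passed alone for Olig2: cluster 6 held 2 and 16 fragments, with a ratio of 4.05 (0.95 to 36.3), and cluster 4 held 4 and 1, with a ratio of 0.81 (0.016 to 8.19). Olig2 was also higher in microglia-like cells, with 2 and 4 fragments, a ratio of 9.20 (1.32 to 102), and 3 of the 4 came from 1 cell; 4.56% of all windows gave that call. Ptf1a held 7 fragments in rod-like cells of the control, 4 of them in 1 cell, and 0 in those of the Ikzf1/4 library, where a limit of 3 counts for a count of 0 comes to 2.16 CPM. Neurod6 held 10 fragments in cluster 1 of the control and 0 in the Ikzf1/4 library, where that limit comes to 2.87 CPM. Lower calls were given by 2.92% of windows in rod-like cells and 2.28% in cluster 1. No member passed in clusters 7 and 10, for which the share over all windows was not computed. None passed in the remaining contrasts of the other classes, where all windows passed in 6.35% and 6.93% (Muller glia-like, higher and lower), 3.57% (rod-like, higher), 2.64% (cone-like, lower), 3.87% (bipolar-like, lower), 3.03% (microglia-like, lower) and 3.78% (cluster 1, higher).

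**Figure D3:**
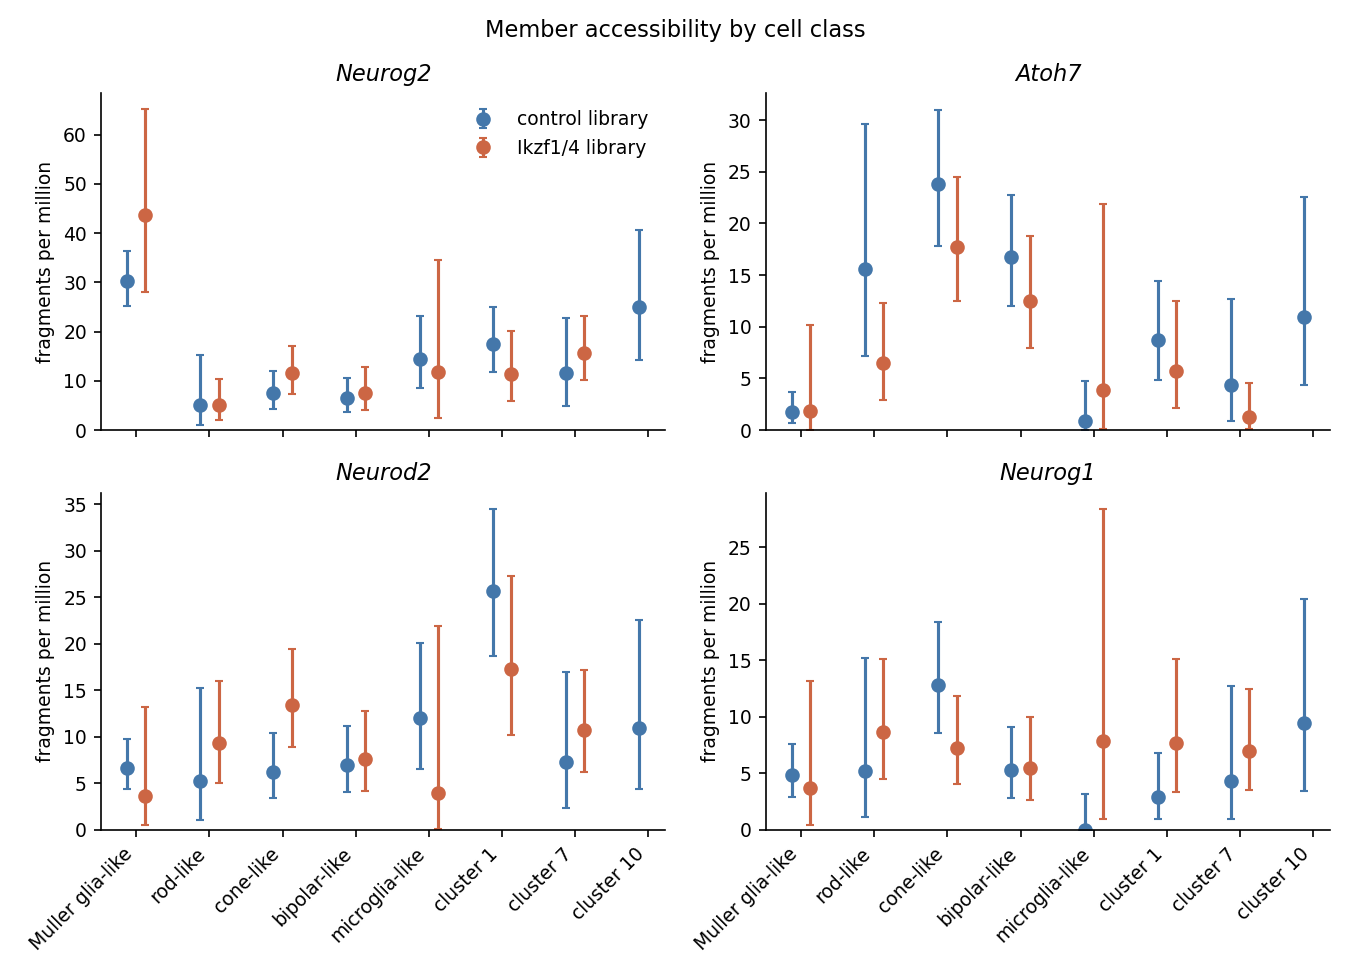
CPM (y axis, linear, 1 panel per gene) in the windows of Neurog2, Atoh7, Neurod2 and Neurog1 in each cell class (x axis), with exact 95% Poisson intervals, in the control library and the Ikzf1/4 library; cluster 10 of the Ikzf1/4 library, with 3 cells, is left out. Among the named classes Neurog2 is highest in Muller glia-like cells of both libraries (30.4 and 43.8), where Atoh7 is at 1.79 and 1.82.

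The position of the cuts around each start, counted as transposase cut sites in tiles of 500 bp, separated the members further. The stretches named here were chosen after these profiles were seen and are a description. In the 2 kb from 500 bp before to 1500 bp after the Neurog2 start, Muller glia-like cells had 47.7 cut sites per 1000000 fragments in the control against 65.7 in the Ikzf1/4 library, against 16.7 and 16.4 in other cells. A stretch 13 to 14 kb downstream (chr3:127646136-127647135, with no RefSeq gene there) had 36.2 and 18.2 in Muller glia-like cells against 3.47 and 5.09 in other cells. The tile with most cut sites near Neurog2 in the control began 19 kb downstream (chr3:127652136-127652635, also with no RefSeq gene). Of its 311 cut sites in the control, 287 (92.3%) came from Muller glia-like cells, which held 29.2% of the fragments, and of its 88 in the Ikzf1/4 library 44 (50%) did, with 6.24% of the fragments. In the Ikzf1/4 library the tile that began 1000 bp after the start had slightly more, 90. The tile at 19 kb lay outside the bins kept out of the clustering, so its class values are no independent measure. By contrast, the tile from 8000 to 7500 bp before the Neurog2 start had 7.66 cut sites per 1000000 fragments in Muller glia-like cells and 8.52 in other cells of the control.

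At Atoh7 (chr10:63099785-63101280) the cut sites were densest over the first 1000 bp of the gene. This stretch had 226 cut sites in the control, of which rod- and cone-like cells gave 105, bipolar-like cells 65 and Muller glia-like cells 14. For the Ikzf1/4 library 130 cut sites fell there, with 73, 36 and 2 from these classes. Another stretch lay 10.5 to 9 kb before the start (chr10:63089285-63090784, with no RefSeq gene), where rod- and cone-like cells gave 38 of 74 cut sites in the control and 46 of 58 in the Ikzf1/4 library. Bipolar-like cells gave 7 and 3 there. These counts are not scaled to the fragments of each class, so they do not compare the libraries. Rod-like cells made up 5.01% of control cells and 19.6% of cells in the Ikzf1/4 library, and cone-like cells 13.9% and 21.1%.

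At Neurod2 Muller glia-like cells of the control were low at the start and high in an upstream stretch. The 1 kb around the start had 86 cut sites in the control against 29 in the Ikzf1/4 library, not scaled to library size. Of these, 0 came from Muller glia-like cells, which held 29.2% and 6.24% of the fragments. Other cells were at 9.05 cut sites per 1000000 fragments in the control against 3.52 for the Ikzf1/4 library, which was not tested. Within 1 kb of the start the ratio of fragments between the libraries was 0.96 (0.63 to 1.46), which did not pass. There Muller glia-like cells held 5 and 1 fragments, with ratios to other cells of 0.21 (0.067 to 0.53) and 0.40 (0.0098 to 2.34). The last interval includes 1. The stretch 10 to 9 kb upstream (chr11:98338646-98339645, inside the gene model Gm33099) had 131 cut sites per 1000000 fragments in Muller glia-like cells of the control and 135 in those of the Ikzf1/4 library, against 10.1 and 16.6 in other cells. A tile 13.5 to 13 kb upstream, inside Gm38970, was at 21.9 in Muller glia-like cells and 17.9 in other cells of the control. Which gene these stretches act on was not measured.

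At Neurog1 the 500 bp before the start, which hold the printed promoter, had 70 cut sites in the control, 38 of them from rod- and cone-like cells, and 45 in the Ikzf1/4 library, 27 of them from these cells. A stretch 8 to 7 kb before the Neurog1 start (chr13:56259181-56260180, with no RefSeq gene) had 89 and 47 cut sites, of which rod- and cone-like cells gave 57 and 36. Ptf1a had its densest tile 2500 to 3000 bp after the start, inside 1810010K12Rik, with 47 and 44 cut sites. Within 500 bp of their starts, Neurog3 had 22 and 10 cut sites, Neurod6 22 and 1, and Olig2 15 and 17. None of these counts is scaled to the fragments of a class or library.

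**Figure D4:**
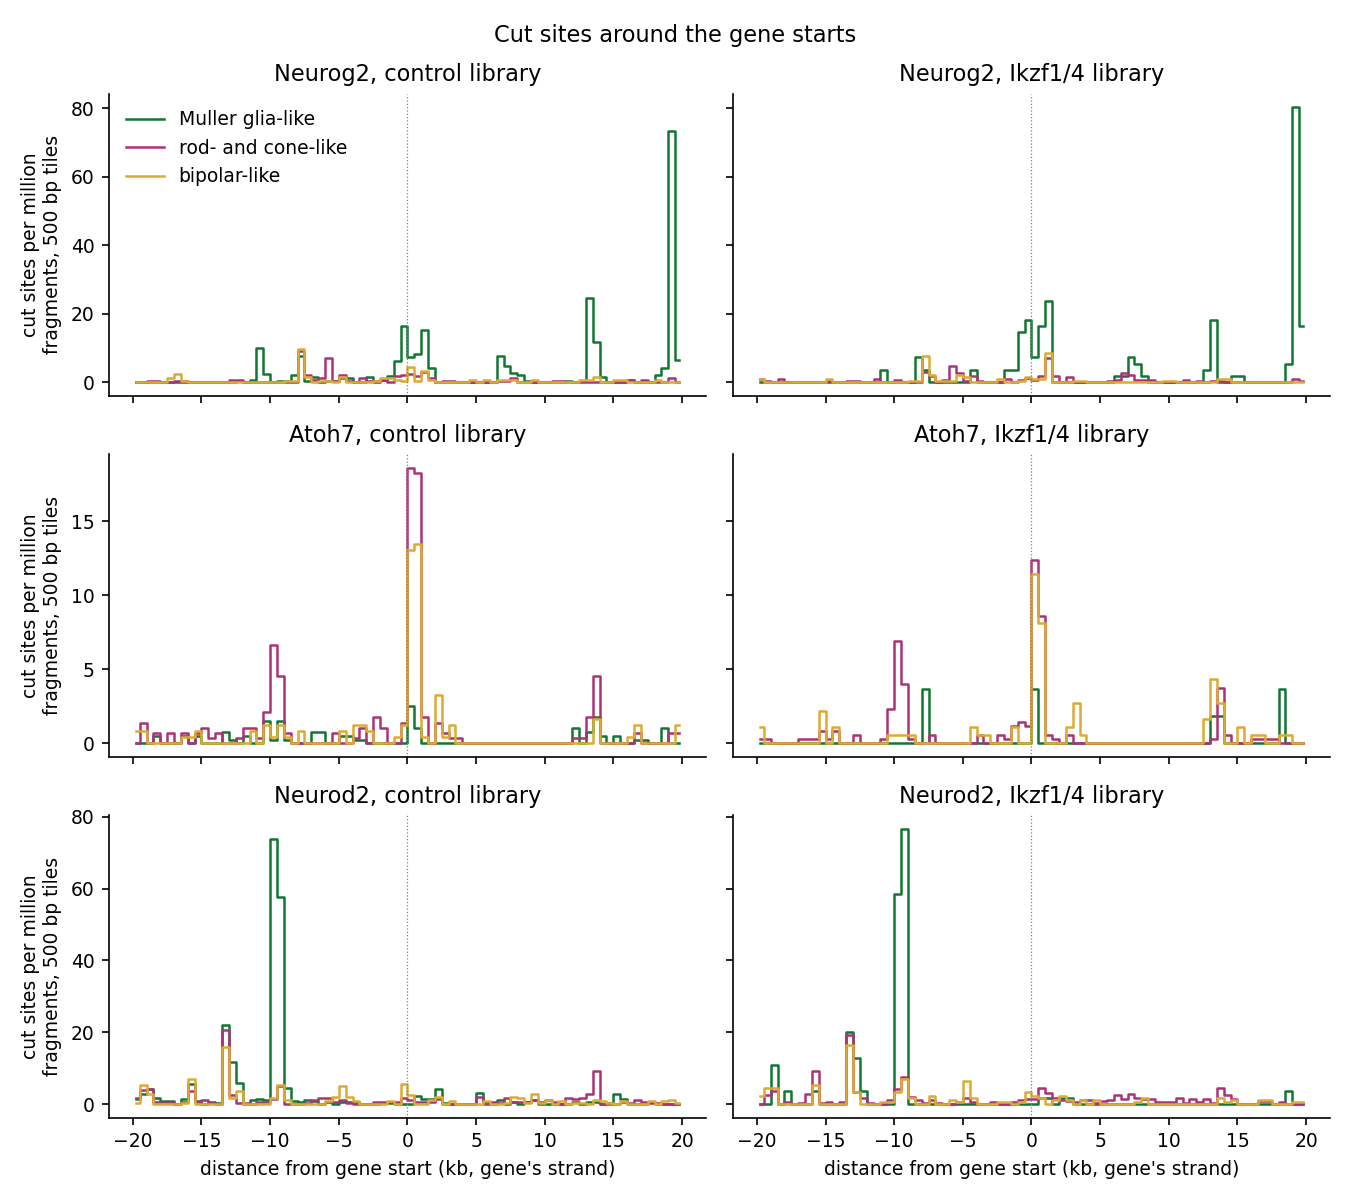
Transposase cut sites per 1000000 fragments (y axis) in 500 bp tiles by distance from the gene start (x axis, kb, up to 20 kb on both sides) at Neurog2, Atoh7 and Neurod2, in Muller glia-like, rod- and cone-like and bipolar-like cells, with the control library on the left and the Ikzf1/4 library on the right. Muller glia-like cells peak 19 kb after the Neurog2 start and 10 to 9 kb before the Neurod2 start, and rod- and cone-like and bipolar-like cells peak at the Atoh7 start.

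Over the 10 values of 5 named classes in the 2 libraries, the windows most like Neurog2 were those of Glul (Pearson r = 0.98), the glutamine synthetase of Muller glia and one of the markers used to name them, and Irx5 (r = 0.98). Of 11335 windows compared, 57 were above 0.9. The windows most like Atoh7 were Scyl2 (r = 0.98) and Mrps28 (r = 0.97), with 29 of 11326 above 0.9, and those most like Neurod2 were Exosc8 and AI597479 (r = 0.85 for both). These points share libraries and depth, so the values only rank the windows.

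In the windows of the rest of the bHLH network, Hes1 was at 90.1 CPM in the control against 81.1 CPM in the Ikzf1/4 library, and Id2 at 44.5 and 41.7. None of 3 E proteins, 4 Id genes or 9 Hes and Hey genes passed 1.5-fold between the libraries. Over all windows 7.47% passed (2.31% higher, 5.16% lower), the share to set beside each list here. Of 10 other neural bHLH factors, Neurod1, a photoreceptor and amacrine factor, was higher (40.2 and 74.6 CPM, ratio 1.85, 1.65 to 2.08) and Nhlh1 was higher (ratio 1.96, 1.31 to 2.95). Of 20 targets, Insm1, a zinc finger factor of newborn neurons, was higher (ratio 2.13, 1.81 to 2.52), Isl1 was higher (ratio 1.59, 1.33 to 1.89) and Dcx was lower (ratio 0.66, 0.50 to 0.87). The mesodermal factors Tcf15 (ratio 1.59) and Myog (ratio 2.09) were higher, 2 of 16. The classes that make up the libraries differ in share, as given above, and their part in these ratios was not tested.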

How the data were processed

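The members and gene lists were chosen with earlier results of these data known. Per the labels, fibroblast RNA was poly(A) selected and quantified with salmon, and the authors deposited a DESeq2 table with a log2 fold change and its SE for each gene, beside the mean signal (normalised counts), the Wald score of the test and p-values before and after adjustment. Neither versions of salmon and DESeq2 nor any shrinkage of fold changes are given there. The deposited SE was the same, 0.0494161, for Neurog1, Atoh7 and Ptf1a. The median SE was lower at means under 1 (0.049) than at means of 10 to 20 (0.214). Whether the fold changes were shrunken was not tested, so they may be smaller in size than unshrunken ones. Transcripts are not paired with genes in the sources used here, so gene values come from that table alone. The labels do not say that libraries came from separate cultures, so p-values may measure technical spread only. Peak lists were not set against genes, because gene positions of their build were not used here.

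Per the file headers, the multiome fragments were made by cellranger-arc (2.0.1) on mm10, and list the counts of read pairs behind each fragment of each barcode. Fragments, not read pairs, were counted. Cells were barcodes with at least 3000 fragments, an enrichment of at least 4 within 500 bp of gene starts and fewer fragments than the 99th percentile of their library. No doublet caller was run. Cells of both libraries were clustered (TF-IDF, singular value decomposition, Leiden with leidenalg 0.10.2 at resolution 0.8) on 5000 bp bins outside the sex chromosomes and outside 10 kb around the members. A cluster was named from its marker list where the median log2 ratio of the markers was at least 0.6 and 0.15 above the next list, limits that were set after the clusters were seen. Poisson and conditional binomial intervals used scipy 1.17.1. Counting and intervals were tested on simulated data. Every member is named; in each pathway list those past the threshold in the deposited table are named, up to 4 by smallest adjusted p, marker lists are given by counts, and Hes1, Dcx, Elavl3, Elavl4, Id2, the named marker genes and the multiome genes were added after their values were seen. Alternatives covered cell minimum, scaling, window, resolution and threshold. One gene of the lists is not reported here.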

Additional observations from a re-analysis of the deposited data

How the results depend on the processing

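In the deposited table, requiring a log2 fold change over 1 left 0 members called, where 2.15% of tested genes were. Benjamini-Hochberg adjustment over every raw p left 1 of 8, Neurog2, at 0.0406, where 19.3% of 24712 genes were called. Between the multiome libraries, 0 members passed 1.5-fold over all barcodes. Within 1 kb of the start 2 passed (Neurog2 and Neurod6, both lower), and Olig2 no longer did. Without the cell with most fragments 2 passed (Olig2 higher and Neurod6 lower), a setting chosen after seeing the data. The share over all windows was 7.47% in the reported setting and was not computed for these. Of 56 other ratios of single members, 50 stayed inside the interval of the reported value and 6 moved outside it. Those 6 were Neurog2 within 1 kb (0.55) and at the control's mix of classes (1.23), Neurod2 with 10 kb (0.79), Neurod6 within 1 kb (0.22), and Ptf1a with at least 10000 fragments (1.89) and within 1 kb (0.58). The ratio of Neurog2 in Muller glia-like over other cells moved to 1.80 (control) and 2.04 (Ikzf1/4) with at least 10000 fragments, and to 6.91 (Ikzf1/4) within 1 kb. Alternatives were run for the ratios of the libraries and for members in a class over other cells, not for comparisons of the libraries within a class, apart from the levels of Neurog2 in Muller glia-like cells. No paired analysis was possible because transcripts are not paired with genes and peaks were not set against genes. For the same reason the edgeR fit with its filter, DESeq2 and leave-one-out alternatives, and all alternatives on fibroblast peaks, were not run. Depth limits Neurog3, Neurod6 and Olig2, whose windows held 15 to 50 fragments per library.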
